A study of Rattus norvegicus with 18 samples.

Results

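The male arm of day 30 set 3 motor cortex libraries named In (In 1, In 2 and In 3) against 3 libraries named S (S 1, S 2 and S 4), 6 of the 18 libraries of the series. They were chosen by their library names, which carry no F prefix, and every difference below is In minus S across 15074 tested genes. The series studies the rat motor cortex at day 7 and day 30 after an injury that its title places in the spinal cord, in males and females, and its design text speaks of enriched primary neurons. The labels give all 6 libraries as male, day 30, motor cortex and polyA RNA. They do not spell out In or S, so the names are kept, and they state no strain, age, injury level or agent. Nothing states that the 3 libraries of a group came from separate animals, so p-values measure a spread between libraries that may be technical. In the main test per gene, that spread was estimated from the day 30 female libraries together with these 6 male libraries.

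The motor cortex holds the layer 5 pyramidal neurons whose axons descend to the spinal cord, and an injury there cuts axons far from the cell bodies. Excitatory synapses on such neurons are built from glutamate receptors held in place by scaffold proteins of the postsynaptic density, and their firing is set by sodium, calcium and potassium channels. Neurons also depend on oxidative phosphorylation, in which respiratory complexes assembled from nuclear-encoded and mitochondrially encoded subunits drive ATP synthesis.

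No gene differed between In and S at an adjusted p under 0.05 in edgeR's quasi-likelihood test, and the smallest adjusted p was 0.599. At an unadjusted p under 0.05 there were 1232 genes, 8.17% of those tested, of which 693 (4.6%) were higher in In and 539 (3.58%) lower. That balance turned without In 1 (324 higher, 383 lower) and without In 1 and S 2 (208 and 257). It also turned with the replicate number as a block in the 6 male libraries (342 and 516) or in all 12 libraries (865 and 1012). With the block, the male difference rested on In 1, In 2, S 1 and S 2 alone, since In 3 and S 4 had no same-numbered partner. The median log2 fold change over all genes was 0.02, with quartiles of -0.23 and 0.26. All 3 In libraries lay above all 3 S libraries for 950 genes (6.3%) and below them for 780 genes (5.17%). Everything that follows describes differences that did not pass the test across all genes. DESeq2 called 2 genes, Tead2 and LOC100359498.

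The 6 libraries held 14532252 to 27849794 counts, and S 1 was the deepest. Mitochondrially encoded transcripts took 53.7% to 60.3% of the counts, against 27.1% to 37.5% in the day 30 female libraries. Their mean share was 57.4% ± 3.37 in In and 57.5% ± 3.11 in S (SD, n = 3 each), a difference of -0.16 percentage points that was smaller than the spread (exact permutation test, two-sided, p = 0.8, where 0.1 is the smallest p that this design allows). Reads that did not align to a unique place stood at 40.6% of S 4 and at 17.4% to 25.6% of the others. In bulk tissue, fewer cells of a type and less RNA per cell cannot be told apart.

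In 1 stood apart from the other 5 libraries. It lay at -100.2 on the first principal component, which held 41.7% of the variance, while the others lay between 6.0 and 48.9. Its Pearson correlation with the others on log2 CPM (counts scaled to library size by TMM) was 0.877 to 0.917. S 2 stood apart on the second component (73.0) and correlated at 0.929 to 0.937 with the libraries other than In 1. The remaining pairs correlated at 0.955 to 0.972.

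The marker lists showed what In 1 held. Summed over 16 oligodendrocyte markers, it reached 10694 CPM, against 48349 to 78122 CPM in the other 5. Mbp, which compacts the myelin sheath, accounted for 0.551% of In 1, 3.05% in In 2 and 3.84% in In 3 among all counts, against 2.80%, 2.71% and 2.70% in S 1, S 2 and S 4. The mean share of Mbp was 2.48% ± 1.72 in In and 2.74% ± 0.0532 in S (exact permutation test, two-sided, p = 1.0), and without In 1 the difference turned from -0.255 to 0.71 percentage points. Markers of red blood cells summed to 618 CPM in In 1 and to 34.5 to 121 CPM in the others, and those of microglia and macrophages to 3200 CPM against 1494 to 2330 CPM. General neuronal markers summed to 2634 CPM in In 1 and to 2913 to 3190 CPM in the others, a far smaller gap. Such a sum rests on the most abundant markers. The median log2 deviation of these markers from the mean of the 6 libraries was -0.34 in In 1 and -0.06 to 0.18 in the others. Excitatory neuron markers summed to 1873 CPM in In 1, against 2424 to 2806 CPM. The libraries thus held RNA of neurons, oligodendrocytes, astrocytes and microglia together, although the design text speaks of enriched neurons. Among defining markers, Crym of layer 5 neurons, Npy of interneurons and Isl1 of striatal neurons were at 0 in all 6 libraries, as were Ttr, Otx2 and Kcnj13 of the choroid plexus. Crym, Npy, Ttr and Kcnj13 were listed at 0 in the 6 female libraries as well. Also at 0 in all 6 male libraries were Myh11, Gpr34, Col1a2, Ogn, Gpr17, Neu4 and Hbe1. Acta2, Csf1r, Col3a1 and Bcas1, from the lists of Myh11, Gpr34, Col1a2 and Gpr17, were counted in all 6. Whether a transcript at 0 was absent or was not counted was not tested. Since In 1 and S 2 stood apart, values without In 1, or without both, are given beside most of the results below.

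**Figure D1:**
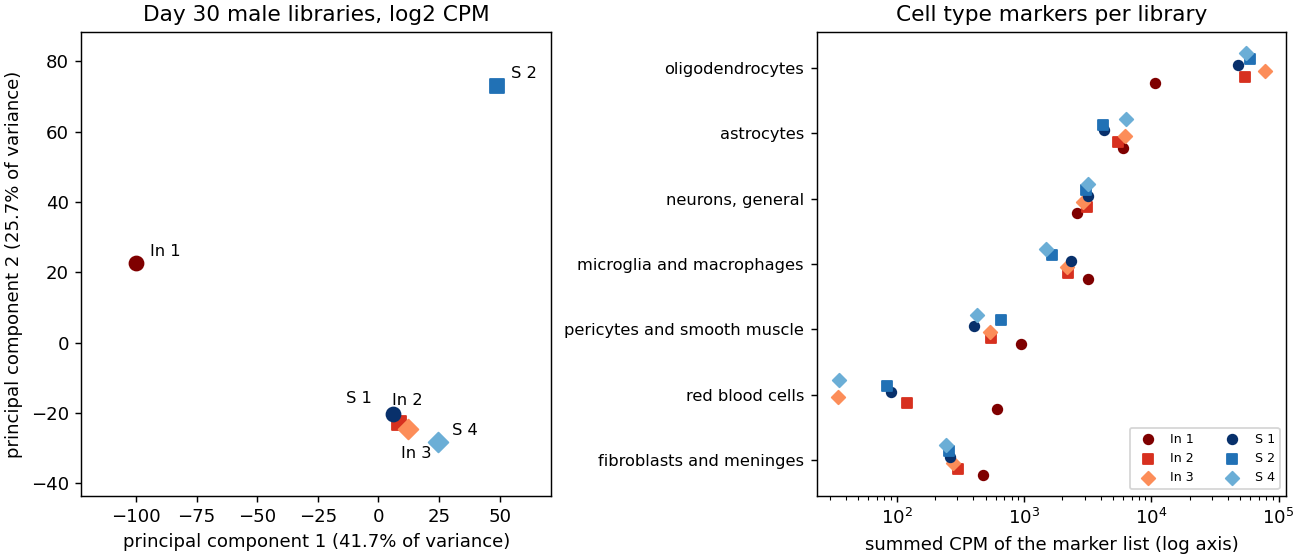
Left, the 6 day 30 male libraries on the first and second principal components of log2 CPM (arbitrary units, share of variance in the axis labels). Right, the summed CPM of 7 marker lists on a log axis, with 1 point per library. In 1 lies alone at -100.2 on the first component and reaches 10694 CPM of oligodendrocyte markers, while the other 5 reach 48349 to 78122 CPM.

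Of the 12 genes higher in In with the smallest p, 10 had no overlap between the groups. A choice by p favours groups that do not overlap, so this count is no added support. Among all tested genes, every In library lay above every S library for 6.3%. Tead2, a DNA-binding partner of the Hippo pathway's coactivators, was at 5.32, 2.88 and 3.09 CPM in In and at 0.853, 0.865 and 1.05 CPM in S, on 34 to 56 counts against 9 to 20. Every In library stood well above every S library, and the log2 fold change was 2.03 ± 0.42 (SE; edgeR, adjusted p = 0.599). DESeq2 gave an adjusted p of 0.0148, and over all alternatives the adjusted p of Tead2 ran from 0.0148 to 1.0. Without In 1 the difference was 1.70, and without In 1 and S 2 it was 1.67. Over 18 genes of the Hippo pathway the median log2 fold change was 0.04, with 9 higher and 9 lower.

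Ifitm2, an interferon-induced membrane protein that restricts virus entry, was at 25.7, 21.3 and 22.2 CPM in In and at 16.5, 9.61 and 10.4 CPM in S (log2 fold change 0.91 ± 0.21). It has near-identical copies in the genome, and the counting could have split reads between them. Id3, an inhibitor of helix-loop-helix transcription factors, was at 66.5, 47.9 and 43.1 CPM in In and at 37.97, 20.5 and 28.7 CPM in S. Alpl, tissue-nonspecific alkaline phosphatase, was at 20.4, 16.3 and 15.3 CPM against 12.9, 7.02 and 8.38 CPM. For Ifitm2, Id3 and Alpl the lowest In library lay above the highest S library, and S 1 was the S library nearest to In. Without In 1 and S 2 their log2 fold changes of 0.91, 0.85 and 0.86 were 0.68, 0.45 and 0.55.

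Sparc, a secreted matrix glycoprotein, was at 1454, 931 and 867 CPM in In and at 676, 581 and 634 CPM in S, with a log2 fold change of 0.78 ± 0.21 that became 0.51 without In 1. Gpc3, a cell-surface heparan sulfate proteoglycan, was at 15.1, 3.32 and 0.636 CPM in In and at 0.555, 0.769 and 0.857 CPM in S. Its fitted log2 fold change of 3.14 ± 0.83 rested on In 1 and In 2, since In 3 lay within the S libraries. Anxa1, a phospholipid-binding protein that dampens inflammation, also overlapped, with In 3 at 6.82 CPM below S 1 at 7.21 CPM. Cyp4v3, Cuta, Efcab13, Mospd3 and Tcea2 made up the rest of the 12, with log2 fold changes of 0.71, 0.61, 2.48, 0.79 and 0.70 and no overlap. Those of Mospd3 and Tcea2 were 0.39 each without In 1 and S 2, and that of Anxa1 went from 1.11 to 0.61, while Gpc3 stood at 1.48 without In 1.

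The 12 genes lower in In with the smallest p all had no overlap, which the choice by p again favours. Among all tested genes, every In library lay below every S library for 5.17%. Arnt, the partner of hypoxia-inducible factors and of the aryl hydrocarbon receptor, was at 2.09, 3.39 and 2.09 CPM in In and at 5.38, 8.36 and 6.38 CPM in S. The highest In library lay well below the lowest S library, and the log2 fold change was -1.38 ± 0.29 (edgeR, adjusted p = 0.599), which was -1.07 without In 1 and S 2. The 17 tested genes of the hypoxia response had a median of 0.01, with 9 higher and 8 lower.

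Ino80 is the ATPase of a complex that moves nucleosomes, and Ino80e is another subunit of it. Ino80e was at 41.5, 36.3 and 43.4 CPM in In and at 116, 51.4 and 86.0 CPM in S, so the In libraries were close together and the S libraries were spread. Its log2 fold change was -1.06 ± 0.23, and without In 1 and S 2 it was -1.34, with an adjusted p of 0.0319. Over its alternatives, that adjusted p ran from 0.0319 to 0.976. Ino80 was at 9.03, 7.86 and 7.27 CPM in In and at 11.7, 18.2 and 14.9 CPM in S (-0.88 ± 0.22). Both subunits were lower in every In library, while the 17 tested genes of the INO80 and SRCAP complexes had a median of 0.02, with 10 higher and 7 lower.

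Nmnat2, an axonal enzyme of NAD synthesis whose loss triggers axon degeneration, was at 4.94, 5.48 and 6.91 CPM in In and at 8.58, 17.8 and 17.2 CPM in S. Its log2 fold change of -1.32 ± 0.31 became -1.22 without In 1 and -1.04 without In 1 and S 2. Cobl, an actin nucleator involved in dendrite branching, was at 18.1, 20.1 and 17.4 CPM in In and at 28.6, 32.3 and 31.3 CPM in S (-0.73 ± 0.17). The values of Cobl were close together within each group and well apart between them. Myo18a, Zfc3h1, Zfp281, Pdzd2, Serinc2 and Nudcd3 completed the 12 together with Cntn5, an adhesion molecule taken up below, at log2 fold changes of -0.78, -0.73, -1.24, -1.22, -1.67, -1.53 and -1.33.

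**Figure D2:**
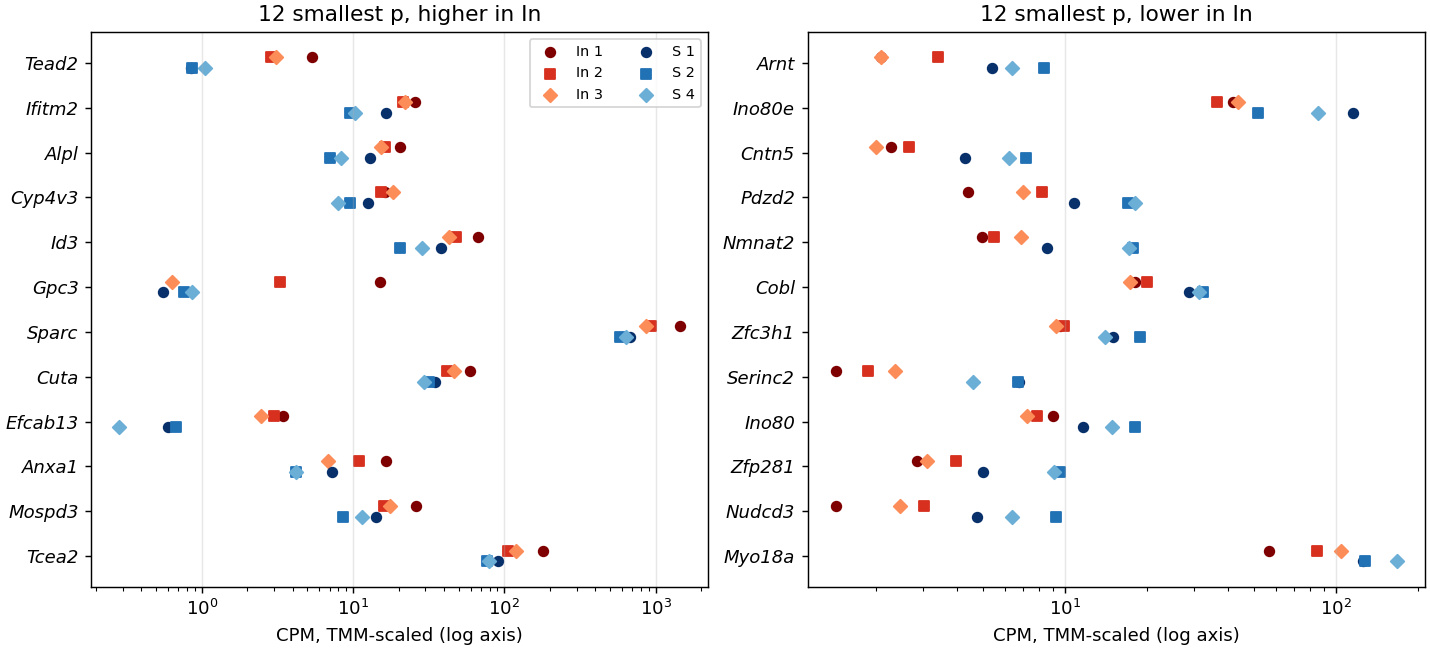
CPM on a log axis of the 12 genes with the smallest p among those higher in male In (left) and among those lower (right), with 1 point per library and In above S in each row. Only Gpc3 and Anxa1 have an In library within the range of S, and In 1 is the highest In point for most genes on the left.

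At the excitatory synapse, 32 of 39 tested glutamate receptor and scaffold genes were lower in In, where 48.0% of all tested genes were lower. At an unadjusted p under 0.05 there were 12, all of them lower, where 3.58% of all tested genes were. Every In library lay below every S library for 13, where it did for 5.17% of all tested genes. The median log2 fold change of the 39 was -0.34, and it was -0.29 without In 1 and -0.22 without In 1 and S 2, when 32 were again lower.

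The postsynaptic scaffolds, which anchor receptors beneath the membrane, had a median of -0.39 over 18 genes, with 15 lower. That median was -0.26 without In 1, and -0.20 with 16 lower without In 1 and S 2. The list's median deviation from the mean of the 6 libraries was -0.39, 0.02 and -0.17 in In 1, In 2 and In 3. It was -0.11, 0.42 and 0.21 in S 1, S 2 and S 4, so S 1 lay below In 2. Shank2, a master scaffold of the postsynaptic density, was at 1.52, 4.69 and 4.54 CPM in In and at 5.03, 17.9 and 9.24 CPM in S (-1.55 ± 0.48). Its groups did not overlap, but In 2 and In 3 came close to S 1, and without In 1 and S 2 the difference was -0.60. Shank3, of the same family, was at 186, 266 and 230 CPM in In and at 268, 322 and 284 CPM in S (-0.36 ± 0.16), and -0.15 without In 1 and S 2. Shank1 overlapped, at 261, 579 and 424 CPM against 474, 1163 and 694 CPM, and its log2 fold change of -0.88 was -0.22 without In 1 and S 2. Dlg4, which encodes PSD-95, was at 721, 983 and 821 CPM in In and at 863, 1270.1 and 988 CPM in S, with overlap and a log2 fold change of -0.31 ± 0.18 that was -0.04 without In 1 and S 2. In 1 was the lowest library and S 2 the highest for all 4 of these scaffold genes.

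Among ionotropic receptors, 12 of 15 genes were lower, with a median of -0.29, and -0.26 without In 1 and S 2. Grin1, the obligatory NMDA receptor subunit, was at 79.3, 95.7 and 82.9 CPM in In and at 120, 111 and 120 CPM in S (-0.44 ± 0.19). The groups did not overlap, and the difference was -0.42 without In 1 and S 2. Grin2a, an NMDA subunit of the mature cortex, was at 0.475, 2.31 and 1.73 CPM in In and at 2.99, 4.42 and 6.76 CPM in S, the first of these on 5 counts, and its difference of -1.60 was -1.22 without In 1 and S 2. Gria2, the AMPA subunit that limits calcium entry, overlapped at 48.9, 70.2 and 62.4 CPM against 82.6, 81.3 and 65.2 CPM, and its difference of -0.34 was -0.20 without In 1. Of the metabotropic receptors, which act through G proteins, 5 of 6 were lower and the median was -0.67. Grm7, a presynaptic group III receptor, was at 10.3, 7.57 and 8.999 CPM in In and at 10.9, 15.3 and 16.6 CPM in S, so In 1 and S 1 nearly met (-0.67 ± 0.22). GABA-A receptor subunits, the inhibitory counterpart, had a median of -0.03 over 12 genes, with 7 lower, and of 0.03 without In 1.

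Ion channels leaned the same way. Of 30 potassium channel genes, 27 were lower in In, with a median of -0.23, and without In 1 and S 2 the median was -0.28 with 26 lower. Kcnt1, a sodium-activated potassium channel, was at 7.03, 12.6 and 13.1 CPM in In and at 22.1, 24.3 and 19.7 CPM in S (-1.01 ± 0.26). Kcnn1, a small-conductance calcium-activated channel, was at 7.51, 10.5 and 10.5 CPM against 13.2, 16.5 and 17.7 CPM. For these 2 potassium channel genes every In library was below every S library. Of 22 voltage-gated sodium and calcium channel genes, 17 were lower, with a median of -0.23 (-0.25 without In 1 and S 2, with 19 lower). Scn1a, the sodium channel mutated in Dravet syndrome in humans, was at 6.37, 4.04 and 9.54 CPM in In and at 12.8, 19.7 and 24.8 CPM in S (-1.52 ± 0.48), and it held at -1.46 without In 1 and S 2.

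Contactins and their partners are adhesion molecules of axons and synapses, and 9 of 11 were lower, with a median of -0.34. Cntn5 was at 2.28, 2.67 and 1.9998 CPM in In and at 4.27, 7.21 and 6.19 CPM in S (-1.33 ± 0.31). Cntnap2, which clusters potassium channels beside the node of Ranvier, was at 3.90, 3.82 and 3.91 CPM in In and at 6.70, 10.96 and 8.47 CPM in S (-1.16 ± 0.29). The In values of Cntnap2 were nearly equal, and leaving out In 1 left its difference at -1.16. Without In 1 and S 2 all 11 genes of the list were lower, at a median of -0.22.

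Every one of the 15 neurofilament, tau and cytoskeletal linker genes was lower in In, with a median of -0.38 that became -0.18 without In 1 and -0.15 without In 1 and S 2, when 12 were lower. Mapt, which encodes tau, overlapped at 251, 349 and 417 CPM in In against 362, 632 and 492 CPM in S (-0.55 ± 0.21), and its difference was -0.37 without In 1 and -0.15 without In 1 and S 2. Ank3, the ankyrin of the axon initial segment, did not, at 60.1, 95.4 and 104 CPM against 108, 134 and 124 CPM, and its difference of -0.50 was -0.29 without In 1. Synaptic vesicle release genes had a median of -0.13, with 13 of 18 lower, which became -0.01 with 9 lower without In 1 and S 2. Unc13a, which primes vesicles for fusion, was at 13.7, 26.3 and 16.5 CPM in In and at 31.2, 28.9 and 41.1 CPM in S (-0.84 ± 0.27), and -0.75 without In 1 and S 2.

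Markers of neurons as a class leaned lower too. Of 15 general neuronal markers, 12 were lower, with a median of -0.18, which was -0.14 without In 1 and -0.17 without In 1 and S 2. Rbfox3, the NeuN antigen, was at 10.9, 30.7 and 26.5 CPM in In and at 39.7, 33.5 and 37.7 CPM in S (-0.70 ± 0.33), and its difference was -0.37 without In 1. Excitatory neuron markers were lower for 10 of 14 genes, with a median of -0.23. This was -0.08 without In 1 and -0.12 without In 1 and S 2. The layer 5 and corticospinal list had 7 of 13 genes lower, with a median of -0.16, which was -0.09 without In 1. Inhibitory neuron markers went the other way, with 10 of 13 higher and a median of 0.12, which was 0.28 without In 1. Sst, the peptide of somatostatin interneurons, was at 21.9, 20.5 and 30.3 CPM in In and at 18.5, 11.5 and 16.2 CPM in S (0.64 ± 0.21), with no overlap. Pvalb, which marks fast-spiking interneurons, overlapped at 20.8, 29.9 and 27.9 CPM against 21.9, 16.1 and 27.7 CPM.

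**Figure D3:**
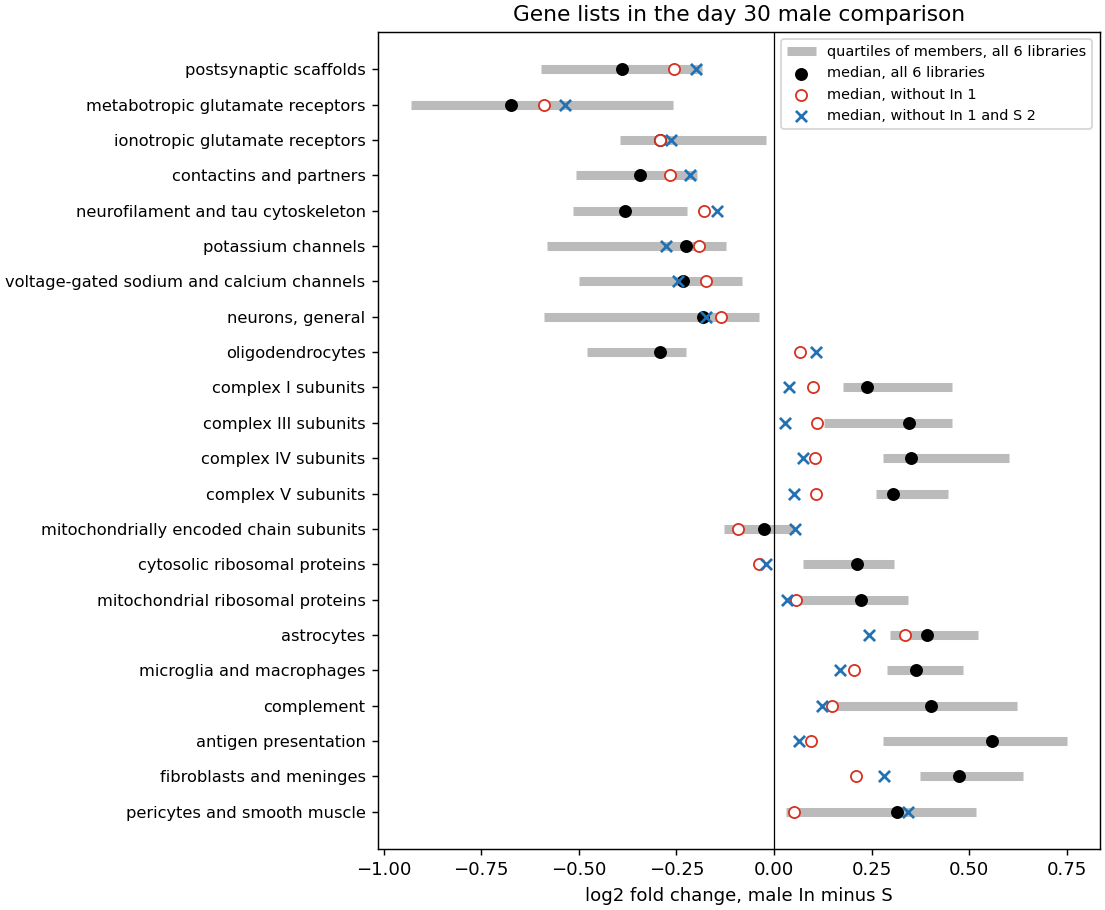
Median log2 fold change (male In minus S) of 22 gene lists, with grey bars for the quartiles of the members, filled circles for all 6 libraries, open circles without In 1 and crosses without In 1 and S 2. The glutamate receptor, scaffold, contactin, cytoskeletal and channel lists drawn here stay left of 0 under all 3, while the oligodendrocyte list moves from -0.29 to 0.07 and 0.11, and the lists of complexes I, III, IV and V move towards 0.

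Nuclear-encoded subunits of the respiratory chain and ATP synthase were higher in In for 69 of 70 tested genes, where 52.0% of all tested genes were higher, and 19 had an unadjusted p under 0.05, all of them higher, where 4.6% of all tested genes were. The median log2 fold change was 0.30. Without In 1 it was 0.11, with 56 of 70 higher, and without In 1 and S 2 it was 0.06, with 47 of 70 higher. The median deviation of complex I genes from the mean of the 6 libraries was 0.56 in In 1, -0.15 in In 2 and 0.02 in In 3, against -0.13, -0.20 and -0.06 in S 1, S 2 and S 4. The In 2 value thus lay within the S values.

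Complex I passes electrons from NADH into the chain, and 32 of its 33 tested genes were higher, with a median of 0.24. Ndufb2, an accessory subunit, was at 125, 73.2 and 72.4 CPM in In and at 67.7, 38.4 and 48.4 CPM in S (0.80 ± 0.25), and 0.49 without In 1. Ndufa8 was at 413, 262 and 279 CPM against 231, 207 and 217 CPM (0.54 ± 0.20), and 0.31 without In 1. In both, the groups did not overlap and In 1 was far above In 2 and In 3. The list medians were 0.18 for complex II (0.20 without In 1), 0.35 for complex III, 0.35 for complex IV and 0.30 for complex V, the ATP synthase.

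Uqcr10, a small subunit of complex III, was at 160, 73.5 and 66.0 CPM in In and at 70.1, 50.4 and 71.4 CPM in S, and its log2 fold change of 0.64 ± 0.28 became -0.02 without In 1 and S 2. Cox6a1 of complex IV, cytochrome c oxidase, was at 1315, 690 and 682 CPM in In and at 631, 470 and 589 CPM in S (0.67 ± 0.24), and 0.29 without In 1. Atp5j, of the ATP synthase stalk, was at 205, 134 and 153 CPM against 123, 112 and 111 CPM (0.50 ± 0.18), and 0.31 without In 1. Atp5b, the catalytic subunit, was nearly level across In 1, In 2 and In 3 at 643, 664 and 674 CPM, and lay above the 614, 559 and 595 CPM of S by only 0.16 ± 0.14.

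The mitochondrially encoded partners did not share the pattern with all 6 libraries. Of 13 such genes 6 were higher, with a median of -0.03, and without In 1 the median was -0.09 with 3 higher. Without In 1 and S 2 it was 0.05 with 7 higher, close to the 0.06 of the nuclear-encoded genes in that setting. COX1, the catalytic core of complex IV, took 268019, 243657 and 295198 CPM in In and 235603, 270567 and 267098 CPM in S (0.06 ± 0.25). ND5, a proton-pumping subunit of complex I, was at 16487, 22474 and 26086 CPM against 19139, 43343 and 33656 CPM (-0.56 ± 0.28), and its difference was -0.12 without In 1 and S 2. ND5 was highest in S 2, the library in which the nuclear-encoded lists were lowest.

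The promoters of the nuclear-encoded genes were read for GCGCA and GCGC with any 1 base between them. Such a sequence is of the kind bound by nuclear respiratory factor 1, a regulator of many chain subunits. RefSeq promoter windows (build GRCr8, 250 bases before to 50 after the gene start) were matched for 61 of the 70 genes, and 13 of them (21.3%) held these letters on either strand. The share was 9.1% of the 11390 tested genes with a window and 4.25% of all 33469 windows. These shares come from the sequences and not from differences between In and S. Whether holders of the motif differed more than the other subunits was not tested. The 3 holders with the smallest p are shown, with the motif in capitals, and that of Ndufa11 holds overlapping copies.
Ndufa11, chr9:1637364-1637663, plus strand: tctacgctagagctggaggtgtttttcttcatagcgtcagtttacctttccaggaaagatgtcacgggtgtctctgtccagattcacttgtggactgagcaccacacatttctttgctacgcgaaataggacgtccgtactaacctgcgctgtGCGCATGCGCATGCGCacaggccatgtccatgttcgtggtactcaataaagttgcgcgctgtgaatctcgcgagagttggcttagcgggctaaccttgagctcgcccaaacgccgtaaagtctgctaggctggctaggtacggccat
Ndufb4, chr11:76568928-76569227, plus strand: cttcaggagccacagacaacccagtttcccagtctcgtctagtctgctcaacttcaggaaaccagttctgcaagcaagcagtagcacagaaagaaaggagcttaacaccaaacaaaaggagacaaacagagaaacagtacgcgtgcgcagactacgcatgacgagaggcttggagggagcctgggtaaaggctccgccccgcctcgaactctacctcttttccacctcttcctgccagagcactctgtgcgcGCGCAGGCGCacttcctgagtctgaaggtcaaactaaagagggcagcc
Ndufv3, chr20:9613536-9613835, plus strand: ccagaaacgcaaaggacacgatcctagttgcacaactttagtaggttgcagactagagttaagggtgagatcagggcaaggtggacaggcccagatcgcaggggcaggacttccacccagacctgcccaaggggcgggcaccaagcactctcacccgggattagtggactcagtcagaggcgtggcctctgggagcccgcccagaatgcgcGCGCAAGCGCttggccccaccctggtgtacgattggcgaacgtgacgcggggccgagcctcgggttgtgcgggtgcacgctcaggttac
These letters are a match and not a shown binding site. Ndufa11 was at 98.4, 56.8 and 55.0 CPM in In and at 47.7, 48.1 and 56.1 CPM in S. Ndufb4 was at 122, 68.6 and 88.7 CPM against 72.1, 67.3 and 63.6 CPM, and Ndufv3 at 70.7, 29.9 and 32.5 CPM against 33.9, 28.8 and 28.2 CPM. All 3 genes overlapped between the groups and were highest in In 1. Without In 1 their log2 fold changes of 0.47, 0.46 and 0.54 became 0.15, 0.22 and 0.04.

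Ribosomal protein genes followed In 1 as well. Of 71 cytosolic ribosomal protein genes 60 were higher, with a median of 0.21, but without In 1 the median was -0.04 with 28 higher. Ribosomal proteins have many processed pseudogenes, which the counting could have mixed with them. Rpl17 was at 681, 466 and 508 CPM in In and at 335, 387 and 400 CPM in S (0.56 ± 0.16), and 0.38 without In 1. Of 68 mitochondrial ribosomal protein genes 57 were higher, with a median of 0.22 that became 0.06 without In 1. Mrps22, of the small subunit, was at 13.7, 12.8 and 13.9 CPM against 10.1, 7.11 and 9.33 CPM, and its 0.60 ± 0.20 was 0.58 without In 1.

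**Figure D4:**
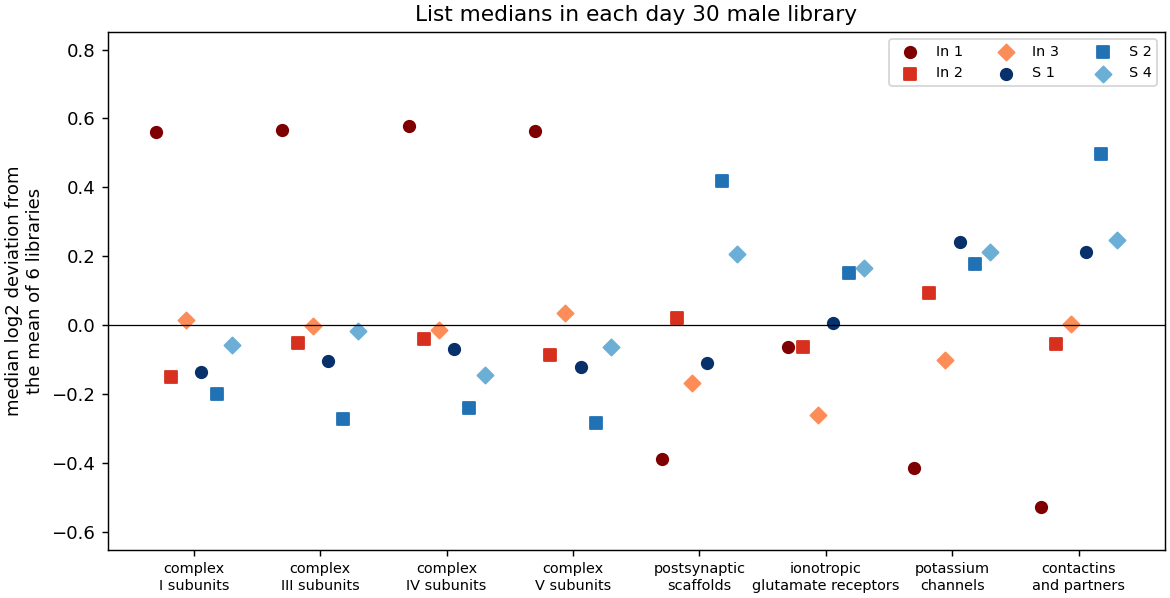
Median log2 deviation of each list's genes from the mean of the 6 libraries, with 1 point per library. In 1 reaches 0.56 to 0.58 in complexes I, III, IV and V while the other 5 lie between -0.28 and 0.04, and the S libraries lie above In 2 and In 3 for the potassium channels and the contactins. For the postsynaptic scaffolds, S 1 lies below In 2.

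Astrocyte markers were higher for 12 of 15 genes, with a median of 0.39, which was 0.34 without In 1 and 0.24 without In 1 and S 2. Gja1, the connexin that joins astrocytes, was at 128, 96.2 and 96.0 CPM in In and at 45.6, 43.5 and 77.6 CPM in S (0.94 ± 0.42), and 0.80 without In 1. Of the 4 most abundant members, S100b (0.51 ± 0.26) and Aldoc (0.39 ± 0.29) were higher, while Gfap and Glul did not share that direction. Gfap, the filament of astrocytes, was at 825, 677 and 593 CPM in In and at 691, 667 and 749 CPM in S (-0.01 ± 0.23). Glul, glutamine synthetase, was at 842, 1290.1 and 1559 CPM against 983, 1143 and 1789 CPM (-0.08 ± 0.28). Gfap and Glul overlapped widely, and both signs turned when single libraries were left out. S100b overlapped only between In 2 and S 4, at 2238, 1850 and 2199 CPM against 1386, 1167 and 1862 CPM. The summed astrocyte markers were at 5998, 5508 and 6218 CPM in In and at 4219, 4200 and 6316 CPM in S, so S 4 was as high as In. Apoe, the main lipid carrier of astrocytes, was at 5935, 2946 and 3032 CPM in In and at 2018, 1867 and 2641 CPM in S (0.87 ± 0.31), and 0.46 without In 1. Reactive astrocyte genes had a median of 0.32, which was 0.02 without In 1.

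Microglial and macrophage markers were higher for 18 of 19 genes, with a median of 0.36 that was 0.17 without In 1 and S 2, with 14 higher. The list's median deviation from the mean of the 6 libraries was 0.53, 0.07 and -0.01 in In 1, In 2 and In 3. It was 0.22, -0.36 and -0.45 in S 1, S 2 and S 4, so S 1 lay above In 2 and In 3. Ctss, a lysosomal protease of microglia, was at 968, 658 and 678 CPM in In and at 620, 454 and 411 CPM in S (0.63 ± 0.23), with no overlap. Csf1r, the receptor on which microglia depend, was at 254, 216 and 201 CPM against 214, 168 and 139 CPM. S 1 met the In range for Csf1r, while S 2 and S 4 lay below it. All 17 tested complement genes were higher, at a median of 0.40, which was 0.15 without In 1. Their median deviation was 0.44, 0.14 and -0.03 in In 1, In 2 and In 3. It was 0.26, -0.28 and -0.55 in S 1, S 2 and S 4, so S 1 again lay above In 2 and In 3. C2, a component of the classical pathway, was at 38.4, 25.01 and 35.9 CPM in In and at 26.2, 17.5 and 15.6 CPM in S (0.73 ± 0.21). Antigen presentation genes had a median of 0.56 with 13 of 16 higher, which was 0.09 with 8 higher without In 1. Cd74, the invariant chain of MHC class II, was at 221, 91.0 and 55.4 CPM in In and at 81.0, 53.4 and 43.7 CPM in S, and its 1.04 ± 0.44 was 0.30 without In 1. Summed microglial markers and red blood cell markers were also highest in In 1, and their part in these differences was not tested.

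Vessel-associated and meningeal genes leaned higher. All 11 tested fibroblast and meningeal genes were higher, with a median of 0.47, which was 0.21 without In 1. Lum, a matrix proteoglycan, was at 10.1, 9.59 and 7.27 CPM in In and at 5.85, 3.75 and 5.71 CPM in S (0.81 ± 0.27), and 0.72 without In 1. Mgp, matrix Gla protein, was at 114, 64.9 and 71.4 CPM against 57.5, 59.99 and 45.7 CPM, and its difference of 0.62 was 0.33 without In 1. Dcn, another matrix proteoglycan, followed In 1, at 33.0, 9.52 and 7.82 CPM against 7.64, 5.19 and 8.09 CPM, and its difference of 1.25 was 0.31 without In 1. Pericyte and smooth muscle genes had a median of 0.31 with 10 of 12 higher, which was 0.05 without In 1 and 0.34 without In 1 and S 2. Endothelial genes were split with all 6 libraries, with 8 of 15 higher and a median of 0.04. Without In 1, 12 were higher at a median of 0.14, and without In 1 and S 2, 13 were higher at 0.12. Cdh5, the cadherin of endothelial junctions, was at 7.89, 9.73 and 8.27 CPM in In and at 12.8, 11.4 and 12.9 CPM in S (-0.52 ± 0.18). Cldn5, a tight junction protein of the same cells, lay the other way, at 450, 439 and 453 CPM against 358, 374 and 389 CPM (0.26 ± 0.17).

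Oligodendrocyte markers were lower for 15 of 16 genes, with a median of -0.29, but without In 1 the median was 0.07 and 11 were higher. The median deviation of the list was -1.83 in In 1, 0.25 in In 2 and 0.59 in In 3, against 0.25, 0.39 and 0.31 in the S libraries. Haemoglobin followed In 1 too: Hba1 was at 304, 53.1 and 13.6 CPM in In and at 32.9, 40.9 and 16.4 CPM in S (2.04 ± 1.34), and 0.16 without In 1.

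The series title names neurodegeneration, and the lists of disease genes stayed near 0. Median log2 fold changes were -0.04 for 21 genes of amyotrophic lateral sclerosis, -0.01 for 23 genes of Alzheimer disease and -0.06 for 16 genes of Parkinson disease. Sod1, the superoxide dismutase mutated in familial amyotrophic lateral sclerosis, was at 154, 101 and 100 CPM in In and at 91.5, 70.7 and 80.0 CPM in S (0.55 ± 0.19), and 0.32 without In 1. Synj1, a phosphatase of synaptic vesicle recycling linked to early parkinsonism in humans, was at 9.79, 24.3 and 21.4 CPM against 29.1, 33.3 and 34.4 CPM (-0.80 ± 0.29), and -0.49 without In 1. Sod1 and Synj1 did not overlap between the groups. Immediate early genes, which report neuronal activity, had a median of -0.06 with 11 of 20 lower, but of -0.20 without In 1 and of -0.24 with 16 lower without In 1 and S 2. Egr1, a transcription factor induced by activity, was at 12.9, 27.0 and 24.5 CPM in In and at 29.3, 31.8 and 34.9 CPM in S (-0.57 ± 0.23), and -0.31 without In 1. Proteasome subunits (median 0.01), tricarboxylic acid cycle enzymes (0.06) and endoplasmic reticulum stress genes (0.05) were also near the median of all genes.

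The male In minus S effect was set against the female effect at day 30 by the interaction of sex and group. No gene passed at an adjusted p under 0.05 (smallest 0.940), and 619 genes (4.11%) had an unadjusted p under 0.05, while DESeq2 called 6. The female medians were -0.03 for postsynaptic scaffolds, -0.02 for complex I, -0.11 for microglial markers and -0.22 for astrocyte markers, 0.20 for antigen presentation and -1.22 for red blood cell markers, and the difference between sexes was not tested per list. Tead2 had a log2 fold change of -0.47 in females, 2.499 below the male one (edgeR interaction, adjusted p = 0.940). Sst had -0.34 in females against 0.64 in males, and Egr1 had 0.61 against -0.57, each with an adjusted interaction p of 0.940. Choroid plexus markers had a median of 6.09 in females and of -0.10 in males, whose libraries each summed to 51.3 to 84.5 CPM of those markers. Enpp2 alone was at 26.9 to 81.1 CPM in the male libraries. Kl, Slc4a5 and Sostdc1 were at most at 2.11, 0.95 and 0.67 CPM, so the male median rested in part on genes with few counts.

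**Figure D5:**
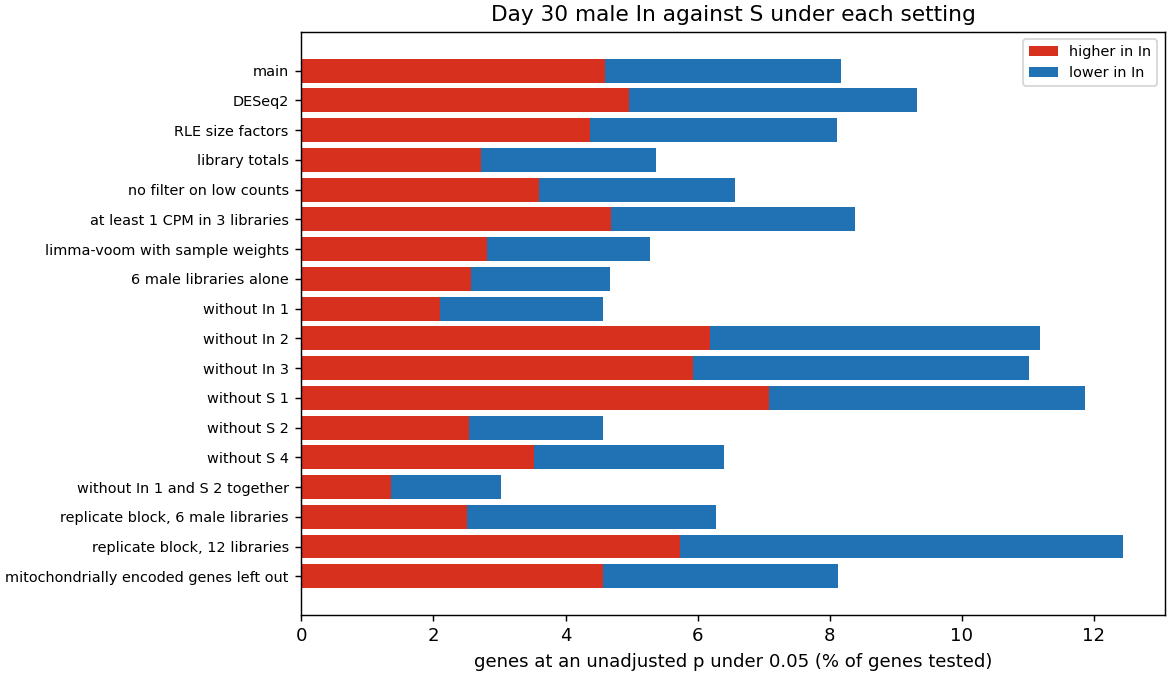
Share of tested genes (%) with an unadjusted p under 0.05 in male In minus S under the main analysis and 17 alternatives, split into genes higher (red) and lower (blue) in In. The share is 8.17% in the main analysis, and the counts run from 465 genes without In 1 and S 2 to 1877 genes with the replicate block in 12 libraries.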

How the data were processed

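The authors deposited a table of raw counts per gene for the 12 day 30 libraries, with 31038 genes, of which 9706 had no read. Per the submitters' processing notes, reads were handled with HISAT2 and edgeR on build rn6. The counter, its strand setting and versions are not given in the sources used here, so overlapping or near-identical genes may share reads. Summary rows (unassigned reads and a sum) were left out of library sizes and tests, and their shares are given only for reads without a unique place. Day 7 was not used here.

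A model of group means over all 12 libraries was fitted to these counts by edgeR 4.0.16 under R 4.3.3. Genes were kept by filterByExpr, scaled by TMM and tested by the robust quasi-likelihood F test, with a Benjamini-Hochberg adjusted p under 0.05. The common biological coefficient of variation was 0.259. CPM values are counts scaled to library size by TMM. Figures used matplotlib 3.10.9. The test was checked on simulated counts. DESeq2 1.42.0, limma 3.58.1 (voom), other scalings, filters and left-out libraries were alternatives.

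Genes named are the first 12 by p on either side (uncharacterised names left out), and among each of 54 lists the 4 most abundant and the 2 with the smallest p. Of these, the text names a choice made after their values were seen, and holders of the promoter motif were picked by their p. The comparison, members and lists were chosen with earlier results of these data known.

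Replicate numbers 1 and 2 are shared by In and S, and same-numbered deviations correlated at 0.0747 and 0.00395, so they were not treated as pairs. The chi-square per gene between libraries of a group was at least 15.4, above sampling noise, so no library was a repeat deposit.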

Additional observations from a re-analysis of the deposited data

How the results depend on the processing

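Calls at an adjusted p under 0.05 numbered 0 in the main analysis, 2 with DESeq2 (LOC100359498 and Tead2), 1 with limma-voom sample weights (LOC100359498), 1 without In 1 and S 2 together (Ino80e), and 0 to 1 when each library was left out in turn (LOC100359498 without In 1, Rb1cc1 without In 2). Genes at an unadjusted p under 0.05 went from 1232 to 810 with library totals, 796 with limma-voom, 638 with the 6 male libraries alone, 465 without In 1 and S 2, and 707 to 1843 with each library left out, both without In 1 and without S 2 at 707 and highest without S 1. The interaction with sex gave 6 calls with DESeq2 and 0 otherwise. With a replicate block in the 6 male libraries there were 0 calls and 858 genes at an unadjusted p under 0.05. With the block in all 12 libraries, an alternative chosen after seeing the data, there were 0 and 1877. Under both blocks the male difference rested on In 1, In 2, S 1 and S 2, since In 3 and S 4 had no same-numbered partner. Same-numbered libraries did not deviate together. The mitochondrial share difference ran from -1.85 to 1.69 percentage points, and that of Mbp from -0.934 to 0.71, with each library left out (the sign of the former turned without In 2, S 2 or S 4, and of the latter without In 1); Mbp stood at 0.697 without In 1 and S 2. Of 108 named genes over the alternatives, 1810 of 1829 values kept direction and side, 6 gained a call and 13 changed sign. These were Uqcr10 (-0.0193) and Mbp (0.399) without In 1 and S 2, Mbp (0.102) with limma-voom, Mbp without In 1, COX1 without In 3, Gfap with the replicate block in 6 (0.122) and 12 libraries (0.139) and without In 2, In 3 or S 4, and Glul without In 1, without S 4 and (0.0417) without In 1 and S 2; with each library left out, log2 fold changes ran from -0.699 to 0.344 for Mbp, -0.0135 to 0.127 for COX1, -0.143 to 0.0935 for Gfap and -0.294 to 0.212 for Glul. These genes were picked with their values seen, so this count says nothing about other genes. Of 54 list medians, 9 changed sign without In 1, 15 without In 1 and S 2, 8 with limma-voom and 7 with the replicate block. The cause was not tested. Depth limits genes such as Tead2 and Grin2a, where 3 counts are 0.128 to 0.288 CPM.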

Other observations

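LOC100359498 had the smallest p of all tested genes and fell outside the rule for named genes, as an uncharacterised name; it is given here after its values were seen. It was at 36.4, 79.5 and 84.4 CPM in In and at 17.4, 16.4 and 16.8 CPM in S, with the S libraries nearly equal and In 1 the lowest of In. Its log2 fold change was 1.98 ± 0.34 (edgeR, adjusted p = 0.599), and its adjusted p over the alternatives ran from 4.21e-05 to 0.912. In females the log2 fold change was 0.74.

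Rb1cc1, which encodes an autophagy-initiating protein also called FIP200, was at 23.8, 81.2 and 36.0 CPM in In and at 85.6, 75.5 and 70.8 CPM in S. It was called without In 2, the In library that lay within the S range, and its log2 fold change with all 6 libraries was -0.71 ± 0.31.

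Genes were also sought that a library alone held at least 8-fold above or below all the other 5, with a minimum of 5 CPM on the high side; the genes named here were picked after their values were seen. In 1 had 27 such genes low and 11 high, S 1 had 1 low, S 4 had 1 high, and In 2, In 3 and S 2 had 0. The low genes of In 1 included the oligodendrocyte genes Ermn, at 8.93 CPM against 87.7 to 154 CPM, and Gjc3, at 0.950 CPM against 10.4 to 23.8 CPM. They also included Myo5a, a myosin of vesicle transport, at 2.66 CPM against 21.5 to 36.9 CPM, and Stac2, at 16.5 CPM against 222 to 300 CPM. The high genes of In 1 included Crabp2, a retinoic acid-binding protein, at 13.9 CPM against 0.0961 to 1.49 CPM, and Lbp, which binds bacterial lipopolysaccharide, at 6.46 CPM against at most 0.597 CPM.

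Sparcl1, a matricellular protein of astrocytes and neurons, was at 9.73 CPM in S 1 on 228 counts. In the other 5 libraries it was at 1563, 1059, 1054, 773 and 1029 CPM in In 1, In 2, In 3, S 2 and S 4. LOC100363469 was at 128 CPM in S 4 on 1344 counts and at most at 1.15 CPM in the other 5.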
